A study of Mus musculus with 2 samples.

Results

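Amphiregulin (Areg), epiregulin (Ereg), heparin-binding EGF-like growth factor (Hbegf), transforming growth factor alpha (Tgfa) and betacellulin (Btc) are 5 ligands of the EGF receptor, and Egfr and Erbb3 encode 2 receptors of the same family. These 7 genes, of 32285 in the matrices, were described in single-cell RNA sequencing of mouse liver tumours. They were picked by name with earlier results of these data known, so every value below is a description and none is a test. The mice carried the genotype labelled MYC-ON, had hepatocellular carcinoma and were gavaged with an agent labelled STK or with DMSO. The labels do not say what STK is, how MYC is switched on, or how many animals, of which age or sex, were pooled. Tumours were dissociated, dead cells were gated out with DAPI and cells staining for CD45, the pan-leukocyte antigen, were sorted and captured with 10x Genomics 5′ chemistry. Each group is 1 library, and the batch label is the same for the pair.

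UMIs (unique molecular identifiers) count captured RNA molecules. Barcodes under 500 UMIs or 250 genes, or with a mitochondrial share over 10%, were left out. This kept 10846 of 11672 STK barcodes and 11152 of 11784 DMSO barcodes as cells, with 79681844 and 78065924 UMIs in all and medians of 4930.5 and 4471.5 UMIs per cell. Cells were assigned to 22 classes by gates on marker genes. Every listed marker of NK, B, plasmacytoid and type 1 dendritic cells, migratory dendritic cells, macrophages and neutrophils was highest in its own gate in both libraries. Markers of type 2 conventional dendritic cells were less specific, with 3 of 7 highest in their gate. Most of the listed markers of these classes also set the gates. A peak in the own gate was thus largely fixed in advance and is no separate check of identity. Against the sort, 1080 STK cells and 1439 DMSO cells fell in a gate of hepatocyte genes (Alb, Ttr, Afp), and in them Ptprc, which encodes CD45, was at 21.9 CPM in STK and 11.8 CPM in DMSO (CPM, UMIs of a gene per 1e6 UMIs of the class). This class is called hepatocyte or tumour cells, since the gate does not separate them. The libraries also differed in sex: of cells with Xist or Y-linked transcripts but not both, 74.0% were female in STK and 18.8% in DMSO. Some animals therefore differed in sex, and values within female and within male cells are given beside the main results. These within-sex values leave out 4318 STK and 5564 DMSO cells with neither kind of transcript, and 294 and 124 with both. Ratios and levels have exact 95% intervals that cover counting error only, and with 1 library per group the treatment cannot be told apart from the animals or the capture.

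EGF family ligands are made as membrane-anchored precursors. Proteases of the ADAM family, above all Adam17 with its iRhom partners (Rhbdf1, Rhbdf2), release them to act on neighbouring cells. Areg, Tgfa, Ereg, Btc and Hbegf bind the EGF receptor, while Erbb3 is bound by neuregulins and signals through its partner receptors. In the liver hepatocytes carry Egfr and Erbb3, and Areg is induced in injury. Areg is also a product of regulatory T cells (Treg) and type 2 innate lymphoid cells in tissue repair.

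Areg lies on chromosome 5 at 91139599-91148432 on the plus strand in GRCm38, with Ereg at 91074622-91093646 on its upstream side and Btc at 91357261-91402994 on the minus strand downstream. The 250 bases upstream of its start, chr5:91139349-91139598 on the plus strand, are shown because Areg is the member that differed in the most classes. Capitals mark a cAMP response element (TGACGTCA), which is palindromic and begins 61 bases before the start, and a TATA box (TATAAA), which begins 31 bases before it. The sequence is from RefSeq (GRCm38.p6).
Areg: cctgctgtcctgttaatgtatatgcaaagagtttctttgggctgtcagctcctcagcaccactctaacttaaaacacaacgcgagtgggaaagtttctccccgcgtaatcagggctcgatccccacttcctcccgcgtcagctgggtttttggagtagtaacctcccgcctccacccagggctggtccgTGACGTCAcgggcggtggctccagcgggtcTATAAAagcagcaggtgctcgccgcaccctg
On either strand, TGACGTCA occurred in 1.55% of 32851 promoter windows of this kind, TATAAA in 12.4%, and the AP-1 motif (TGACTCA or TGAGTCA), which was not in the Areg window, in 4.46%. None of these letters was found in the windows of Tgfa, Egfr or Btc. A match is a description of letters, not of binding.

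Areg had the most UMIs of the 5 ligands in both libraries. It had 5338 UMIs in STK cells and 1577 in DMSO cells, or 67.0 and 20.2 CPM over all kept cells, a ratio of 3.32 (95% interval 3.13 to 3.51). Within female cells the ratio was 14.4 (10.5 to 20.3), from 56.6 CPM in STK and 3.93 CPM in DMSO. Within male cells it was 2.93 (2.67 to 3.21), from 68.3 CPM in STK and 23.3 CPM in DMSO. Both sexes were thus higher in STK.

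Treg cells, gated on T cell genes with a Foxp3 UMI and no CD8 UMI, had the highest Areg level in STK. The 247 STK Treg cells held 1304 Areg UMIs (885 CPM) and the 308 DMSO Treg cells 688 UMIs (393 CPM), a ratio of 2.25 (2.05 to 2.48). After each cell was thinned to 1000 UMIs, 42.5% of STK Treg cells and 19.3% of DMSO Treg cells had an Areg UMI (intervals 36.3 to 48.9% and 15 to 24.2%). Female Treg cells had 789 CPM in STK and 233 CPM in DMSO, where 16 cells held 14 UMIs, and male Treg cells 687 CPM in STK and 384 CPM in DMSO. The difference was thus in the same direction in both sexes, with a female ratio of 3.39 (2.0 to 6.25) and a male ratio of 1.79 (1.54 to 2.08). Of 10349 genes measured in Treg cells, 8.9% were at least 1.5-fold higher and 12.5% at least 1.5-fold lower in STK, and Areg stood at place 245 by ratio.

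T cells with the Treg signature (Il2ra, Ctla4, Ikzf2, Tnfrsf4, Tnfrsf18) but no Foxp3 UMI also had high levels. Their Areg stood at 841 CPM in 164 STK cells and 658 CPM in 155 DMSO cells, a ratio of 1.28 (1.10 to 1.48). Here the sexes parted: the ratio was 2.09 (1.18 to 4.01) in female cells and 0.260 (0.172 to 0.381) in male cells, and the DMSO value rested on few cells, since 5 of 155 held 62.0% of the UMIs. In these cells 13.3% of genes were at least 1.5-fold higher and 16.6% lower. T cells with both Foxp3 and CD8 UMIs held 386 Areg UMIs in 88 STK cells and 49 in 35 DMSO cells.

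The share of all Areg UMIs that lay in Treg cells was smaller in STK, at 24.4%, than in DMSO, at 43.6%. Gated cells outside the 3 Treg-related gates held 2332 Areg UMIs in STK and 344 in DMSO, or 34.5 and 5.12 CPM, a ratio of 6.74 (6.02 to 7.57). Within female cells these counts were 1188 and 10 UMIs (ratio 29.4, 15.9 to 61.4), and within male cells 324 and 242 UMIs (ratio 4.49, 3.79 to 5.32). Areg outside Treg cells was thus higher in STK in both sexes.

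Among T cells, conventional CD4 cells had Areg at 111 CPM in STK and 11.3 CPM in DMSO, a ratio of 9.82 (6.14 to 16.5). Gamma-delta or IL-17 T cells, which sit in epithelia and barrier tissue, had 181 CPM in STK and 23.2 CPM in DMSO (7.83, 4.03 to 17.4). CD8 T cells, the cytotoxic T cells, had 70.2 CPM in STK and 16.3 CPM in DMSO (4.29, 3.47 to 5.36). In male CD8 T cells, however, Areg was at 32.1 CPM in STK and 28.5 CPM in DMSO, a ratio of 1.13 (0.782 to 1.61), while 655 female STK cells held 409 UMIs against 1 UMI in 87 female DMSO cells. Conventional CD4 T cells had a ratio of 12.7 (5.99 to 30.1) in male cells, and 76 UMIs in female STK cells against 0 in female DMSO cells. Among gamma-delta or IL-17 T cells the female ratio was 1.34 (0.434 to 6.75) and the male ratio 5.82 (2.35 to 17.2). Other T cells had 57.2 CPM in STK and 18.6 CPM in DMSO (3.08, 1.88 to 5.30), with 38 and 0 UMIs in female cells and 2 and 1 UMIs in male cells. The share of genes at least 1.5-fold higher and lower was 10.8% and 14.1% in conventional CD4 T cells, where Areg stood at place 5 of 10162. It was 8.3% and 8.24% in CD8 T cells (place 36 of 12391) and 10.7% and 14.5% in other T cells (place 75 of 9907). With Leiden clusters in place of gates, the CD8 T cell ratio was 7.02.

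NK or ILC1 cells, innate lymphocytes that kill or make interferon-gamma, had Areg at 53.8 CPM in STK and 4.67 CPM in DMSO, a ratio of 11.5 (7.55 to 18.4). This was the highest ratio of 11864 genes measured in that class, of which 7.62% were at least 1.5-fold higher and 10.6% lower in STK. Male NK or ILC1 cells had 58.0 CPM in STK and 4.78 CPM in DMSO (12.1, 6.24 to 25.4), and female cells 51.2 CPM in STK and 2.17 CPM, from 1 UMI, in DMSO. The level in STK was thus close between the sexes. After thinning, 2.81% of STK cells (1.97 to 3.89) and 0.558% of DMSO cells (0.181 to 1.30) had an Areg UMI. The 23 DMSO UMIs lay in 6 cells, and the ratio was 19.9 without doublet calls and 22.0 with Leiden clusters.

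Antigen-presenting cells and monocytes also held Areg. Plasmacytoid dendritic cells (pDC), the interferon-alpha producers, had 29.9 CPM in STK and 6.24 CPM in DMSO (4.79, 3.01 to 7.98). cDC1, the cross-presenting dendritic cells, had 116 UMIs in 225 STK cells and 0 in 172 DMSO cells. With DMSO set to a floor of 3 UMIs the STK level was 25-fold higher. A fold by this floor leaves out the counting error of the STK count and is not a lower limit. cDC2 had 55.2 CPM in STK and 31.3 CPM in DMSO (1.77, 1.33 to 2.37). Migratory dendritic cells had 47.1 CPM in STK and 9.59 CPM in DMSO (4.91, 2.47 to 10.8). Classical monocytes had 56.8 CPM in STK and 5.42 CPM in DMSO (10.5, 6.85 to 16.7), and macrophages 24.2 CPM in STK and 3.73 CPM in DMSO (6.49, 4.17 to 10.6). Non-classical monocytes held 10 UMIs in STK and 0 in DMSO, 7.28-fold higher by the same floor. Leiden clusters gave other sizes in these classes, with ratios of 2.63 in pDC, 14.4 in cDC2, 19.6 in classical monocytes and 12.9 in macrophages. Without barcodes that occur in both libraries the ratio was 3.07 in cDC2 and 11.0 in macrophages.

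The share of genes at least 1.5-fold higher and lower was 10.5% and 7.51% in pDC, 10.7% and 11.2% in cDC1, 8.47% and 15% in cDC2 and 10.3% and 16.7% in migratory dendritic cells. It was 9.16% and 12.1% in classical monocytes, 10.1% and 15.4% in non-classical monocytes and 7.64% and 11.4% in macrophages. By ratio Areg stood at place 1 of 10220 genes in cDC1, 4 of 8858 in non-classical monocytes, 13 of 11132 in classical monocytes, 20 of 12047 in macrophages and 38 of 11573 in pDC, but at place 576 of 10560 in cDC2.

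Within males the myeloid classes differed from one another. Male classical monocytes had Areg at 68.7 CPM in STK and 6.55 CPM in DMSO (10.5, 5.43 to 21.6), and male cDC1 had 55 UMIs in 69 STK cells and 0 in 99 DMSO cells. Female cDC1 held 7 UMIs in 101 STK cells and 0 in 13 DMSO cells, so the level in STK was 5.40 CPM in female and 61.1 CPM in male cDC1, and the female count is too low for a lower bound above 1. Male non-classical monocytes held 0 Areg UMIs in both libraries, and female ones 7 in STK and 0 in DMSO. Migratory dendritic cells held 3 UMIs in each library in male cells, and 9 in STK and 0 in DMSO, from 2 cells, in female cells. In male pDC the ratio was 1.31 (0.533 to 3.08), in male cDC2 1.02 (0.653 to 1.56) and in male macrophages 1.36 (0.634 to 2.83), so in these 3 classes the male interval included 1. Female pDC held 79 UMIs in STK and 0 in DMSO, and female macrophages 129 and 0, but there were 88 and 45 such DMSO cells. In all, female DMSO cells outside the Treg-related gates held 10 Areg UMIs in 852 cells.

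Classes with little Areg gave a background level. B cells held 3 UMIs in STK and 0 in DMSO, neutrophils 2 and 0, and Kupffer cells 0 in both. After thinning, 3 of the STK B cells (0.310 to 4.32%) and none of the DMSO B cells had an Areg UMI, from medians of 1994 and 1783.5 UMIs per cell. Of genes measured in B cells, 14.7% were at least 1.5-fold higher and 19.2% lower in STK, and in neutrophils 15% and 15.6%. Hepatocyte or tumour cells had 83 Areg UMIs in STK and 22 in DMSO (3.52 and 0.704 CPM), a thinned share of 0.284% and 0.0704%, and 39 of the STK UMIs lay in 1 cell. Without doublet calls their ratio of 5.0 (3.09 to 8.41) was 2.11 (1.08 to 4.22). Female cells of this class held 18 Areg UMIs in STK and 2 in DMSO (3.74, 0.896 to 33.3). Male cells held 0 in STK and 10 in DMSO (ratio 0, interval up to 2.71). Both intervals include 1, so these counts do not settle a direction within sex. Most of the 83 STK UMIs lay in cells that were not assigned to 1 sex. The STK share in pDC (4.11%, 2.79 to 5.81) was above that in hepatocyte or tumour cells but its interval overlaps that of B cells, and the share in macrophages (1.35%, 0.718 to 2.29) overlaps both background classes. By level, macrophages (20.9 to 27.9 CPM) did lie above B cells (1.16 to 16.5 CPM) in STK. Mast cells or basophils, known sources of Areg, held 16 UMIs in 1 of 20 STK cells and 0 in 10 DMSO cells. No gate of type 2 innate lymphoid cells was drawn. Il5 was at most 2.23 CPM in any gated STK class of at least 50 cells and at 0 in those of DMSO. Il5 was not examined in cells of no gate or of several lineages, where type 2 innate lymphoid cells could lie.

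**Figure D1:**
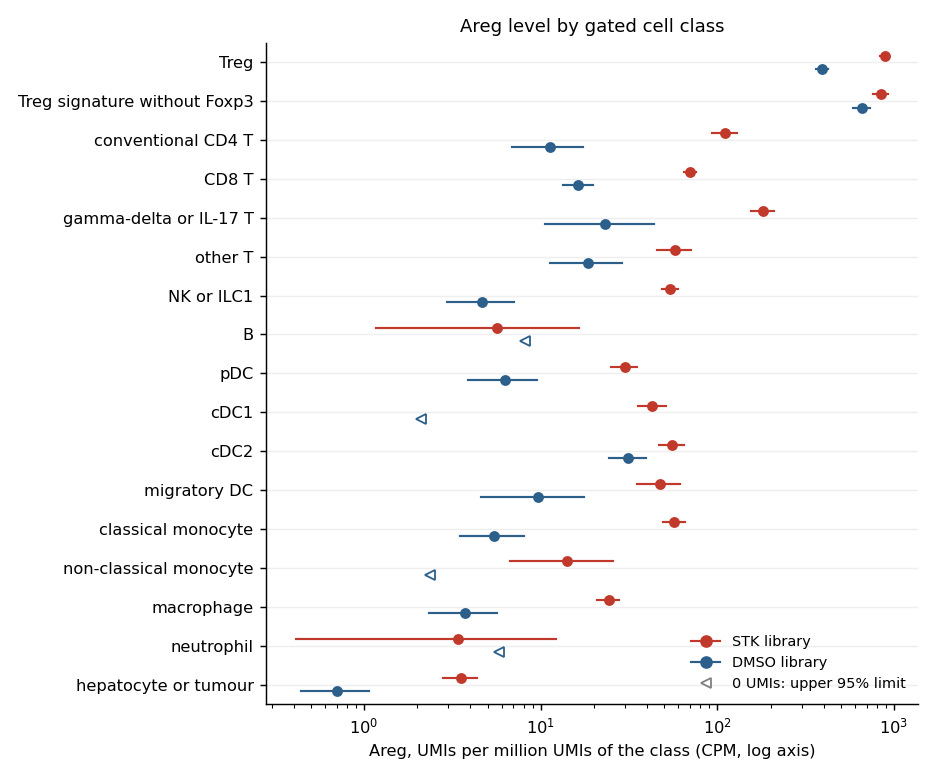
Areg level in each gated class with at least 50 cells per library (CPM, log axis), STK above DMSO, with exact Poisson 95% intervals. Open triangles mark the upper limit where a library had 0 UMIs. The Treg gates stand at 393 to 885 CPM, and STK lies above DMSO in every class drawn that has UMIs in both libraries.

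Areg was concentrated in few cells. Cells with at least 10 Areg UMIs numbered 135 in STK and 40 in DMSO and held 55.4% and 58.1% of all its UMIs. Of them, 65 in STK and 23 in DMSO had a Foxp3 UMI, 111 and 37 had a UMI of Cd3d, Cd3e, Cd3g or Trac, and 17 and 6 were called doublets by Scrublet. Their medians of 7413 UMIs in STK and 6873 UMIs in DMSO were above those of all cells. Without the 5 cells with the most Areg in each library, the ratio over all cells was 3.65 (3.44 to 3.88).

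The clumping differed between classes. In Treg cells 26 STK cells and 13 DMSO cells held 50% of the Areg UMIs, with at most 50 and 48 UMIs in a cell. In CD8 T cells 5 STK cells and 2 DMSO cells did so: 107 of 1706 STK cells had any Areg UMI and 1 of them held 88. In NK or ILC1 cells 8 STK cells held 50% of 369 UMIs. In cDC1 5 of 225 STK cells held 79.3% of the UMIs, and of the 4 cDC1 with at least 10 Areg UMIs none had a UMI of these T cell genes and 2 had a UMI of the Treg list. Of the 8 NK or ILC1 cells with at least 10, 4 had a UMI of these T cell genes and 6 one of the Treg list.

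In pDC Areg was at low counts per cell. Their 139 STK UMIs lay in 86 cells with at most 7 each, 57 of these cells had a single UMI, and the variance over the mean of thinned counts was 1.02. Random sampling of equal cells gives 1, but at counts this low (31 thinned UMIs) the quotient cannot show whether Areg was spread evenly. In DMSO NK or ILC1 cells it was 0.996, from 5 thinned UMIs, though 5 cells held 95.7% of the unthinned UMIs. That quotient was 3.18 in STK and 2.47 in DMSO Treg cells, 3.51 in STK NK or ILC1 cells and 9.59 in STK and 5.34 in DMSO CD8 T cells. Hbegf in hepatocyte or tumour cells had 0.946 in STK and 1.15 in DMSO. Areg thus sat largely in cells with many UMIs in Treg cells, CD8 T cells and STK NK or ILC1 cells. This did not hold for all T cells. Cells with at least 10 Areg UMIs held 15.4% of its UMIs in STK conventional CD4 T cells and 12.8% in STK other T cells. In STK pDC Areg was mostly at a single UMI per positive cell. In DMSO pDC 5 cells held 61.9% of the 21 Areg UMIs.

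**Figure D2:**
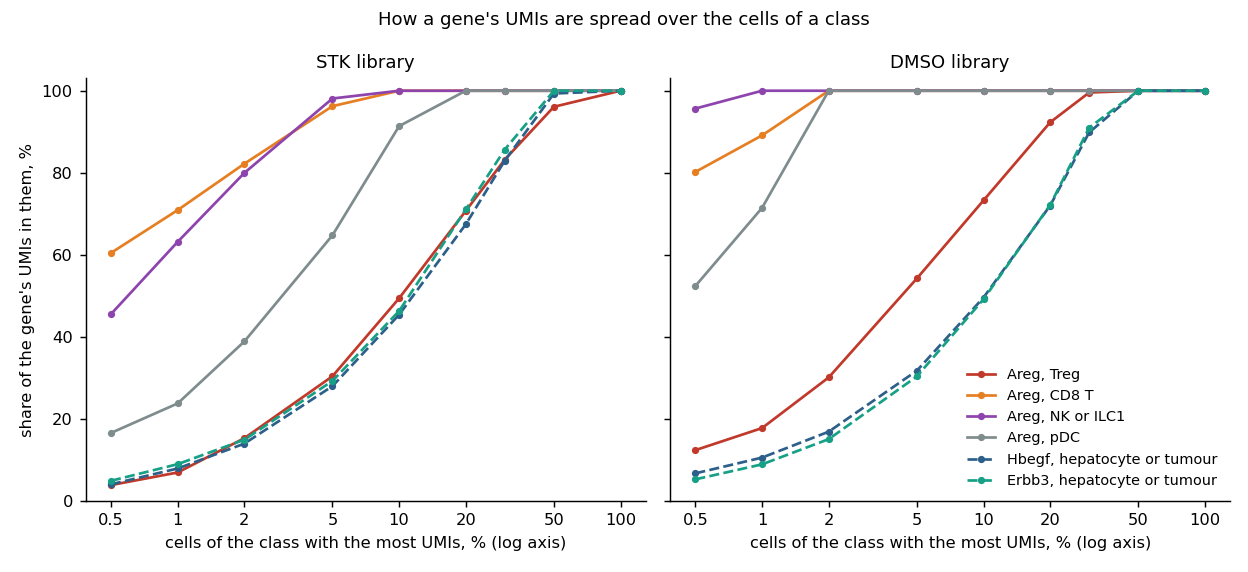
Share of a gene's UMIs (%, vertical) held by the cells of a class that have the most (% of cells, log axis), STK library left and DMSO library right. Areg in CD8 T and NK or ILC1 cells climbs at once (5 CD8 T cells hold 50.7% in STK), whereas Hbegf and Erbb3 in hepatocyte or tumour cells climb slowly.

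Within Treg cells, those with an Areg UMI were compared with those without one, inside each library and after thinning (105 and 142 STK cells, 59 and 247 DMSO cells). None of 16 tissue repair and type 2 effector genes, and none of 20 early response genes, had shares whose intervals did not overlap, in either library. Without thinning, Nr4a1, an early response gene named after its values were seen, was found in 78.5% of STK Treg cells with Areg and 47.6% of those without, and in 75.8% and 52.1% in DMSO, with intervals that do not overlap. Shares without thinning depend on the depth of the cells. After thinning, those of Nr4a1 were 46.7% and 29.6% in STK and 33.9% and 28.3% in DMSO, with intervals that overlap. Il1rl1, the IL-33 receptor, was detected in 7.62% of STK Treg cells with Areg (3.35 to 14.5%) and in 3.52% of those without (1.15 to 8.03%). Between libraries, Il1rl1 was at 41.4 CPM in STK and 14.3 CPM in DMSO Treg cells, a ratio of 2.90 (1.79 to 4.82). Il10, a suppressive cytokine, had a ratio of 0.358 (0.226 to 0.551), Prdm1, which encodes BLIMP-1, 0.632 (0.464 to 0.854), and Rora, a nuclear receptor of type 2 lymphocytes, 1.47 (1.27 to 1.70). Il13, a type 2 cytokine, held 11 UMIs in STK and 0 in DMSO Treg cells, 4.36-fold higher by the floor. Of 14 measured genes of this list, 2 were at least 1.5-fold higher and 3 at least 1.5-fold lower in STK. Over all genes measured in Treg cells these shares were 8.9% and 12.5%. The median log2 ratio of the list was -0.01, beside -0.04 over all genes.

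Levels of Areg over 17 classes and both libraries (34 points) were most like those of Nrip1, a nuclear receptor corepressor (Pearson r = 0.86), Fam110a (0.85), Neb, which encodes nebulin (0.85), Gpr55, a lysophospholipid receptor (0.84), and Sdf4 (0.84), of 12355 genes. The measure was the correlation of log2(CPM + 10), the points share libraries and depth, and the 4 points of the Treg gates are far above the rest. By rank correlation 1 of the 5, Nrip1, was among the first 5 (Spearman rho = 0.79).

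Hbegf, a heparin-binding ligand that also serves as the diphtheria toxin receptor in primates, came mainly from hepatocyte or tumour cells. They held 73.7% of its UMIs in STK and 74.2% in DMSO, namely 1320 and 807 UMIs. Its level was 56.0 CPM in STK and 25.8 CPM in DMSO, a ratio of 2.17 (1.98 to 2.37). Female cells had 60.8 CPM in STK and 20.5 CPM in DMSO (2.97, 2.47 to 3.59), and male cells 47.1 CPM in STK and 26.8 CPM in DMSO (1.76, 1.45 to 2.12). Both sexes were thus higher in STK. Without thinning 50.8% of STK cells and 35.7% of DMSO cells had a UMI, and after thinning 5.48% (4.19 to 7.03) and 4.08% (3.11 to 5.24), which overlap.

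Macrophages held 163 Hbegf UMIs in STK, the second largest count there, and 39 in DMSO, where classical monocytes held 44, or 20.2 and 6.62 CPM (3.06, 2.15 to 4.46). Male macrophages had 17 CPM in STK and 5.05 CPM in DMSO (3.36, 1.72 to 6.83), and female macrophages 21.3 CPM in STK and 7.35 CPM, from 2 UMIs, in DMSO. The hepatocyte gene list, a measure of free hepatocyte RNA, was at 719 CPM in STK macrophages and 685 CPM in DMSO macrophages, and its part in this result was not tested. Classical monocytes had Hbegf at 9.33 CPM in STK and 9.94 CPM in DMSO (0.939, 0.579 to 1.51). Kupffer cells, the resident liver macrophages, held 35 UMIs in 30 STK cells and 0 in 8 DMSO cells. In STK their level was 124 CPM in 9 female cells (10 UMIs) and 154 CPM in 3 male cells (3 UMIs). Both lie above hepatocyte or tumour cells of the same sex in STK, at 60.8 and 47.1 CPM, but rest on few UMIs. CD8 T cells (22 UMIs in STK and 10 in DMSO, ratio 1.63, 0.743 to 3.87) and NK or ILC1 cells (12 and 16 UMIs, 0.538, 0.232 to 1.21) had intervals that include 1. So did pDC (13 and 3 UMIs, 3.13, 0.861 to 17.1), cDC2 (9 and 3 UMIs, 2.48, 0.618 to 14.2), other T cells (4 and 7 UMIs, 0.410, 0.0879 to 1.61) and neutrophils (6 and 6 UMIs, 1.08, 0.289 to 4.04). cDC1 held 12 Hbegf UMIs in STK and 0 in DMSO, 2.58-fold higher by the floor.

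Tgfa, which binds the EGF receptor alone, was rare, with 100 UMIs in STK and 47 in DMSO, 1.25 and 0.602 CPM (2.08, 1.46 to 3.01). Hepatocyte or tumour cells held 38 UMIs in STK and 28 in DMSO (1.80, 1.08 to 3.04). NK or ILC1 cells held 20 in STK and 5 in DMSO (2.87, 1.05 to 9.79), and CD8 T cells 12 in STK and 0 in DMSO, 2.97-fold higher by the floor. Within sex the ratio over all cells was 2.78 in female cells (48 and 4 UMIs, 1.02 to 10.6) and 1.65 in male cells (16 and 31 UMIs, 0.844 to 3.11). Btc, a ligand of the EGF receptor and Erbb4, had 8 UMIs in STK, 3 of them in Treg cells, and 0 in DMSO. Ereg had 1 UMI in STK and 2 in DMSO. Neither Btc nor Ereg could be compared at this depth.

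Egfr, the receptor of these ligands, was found mainly in 2 classes. Hepatocyte or tumour cells held 137 UMIs in STK and 198 in DMSO, or 5.81 and 6.33 CPM, a ratio of 0.917 (0.732 to 1.15). pDC held 80 UMIs in STK and 66 in DMSO, or 17.2 and 19.6 CPM (0.877, 0.625 to 1.23). Female pDC had a ratio of 0.999 (0.448 to 2.62), and male pDC one of 0.600 (0.265 to 1.24). Over all cells of the class, on the CPM scale the pDC level was above that of hepatocyte or tumour cells in both libraries, with intervals that do not overlap (13.6 to 21.4 CPM in pDC and 4.88 to 6.86 CPM in hepatocyte or tumour cells of STK, 15.2 to 24.9 CPM and 5.48 to 7.28 CPM in DMSO). A UMI was found in 9.80% of STK and 9.01% of DMSO pDC, with medians of 5491 and 4869 UMIs. In macrophages, with deeper medians of 7673 and 5694 UMIs, it was 0.199% in STK and 0.0979% in DMSO. Among hepatocyte or tumour cells, 107 of 1080 in STK and 131 of 1439 in DMSO had an Egfr UMI, a share like that of pDC. Their medians were deeper still, at 23052 and 23088 UMIs. The hepatocyte gene list stood at 343 CPM in STK and 408 CPM in DMSO pDC, below its level in macrophages. Egfr UMIs in pDC were mostly 1 per positive cell, 80 in 72 STK cells and 66 in 61 DMSO cells.

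In female hepatocyte or tumour cells Egfr was lower in STK, at 6.81 CPM, than in DMSO, at 13.6 CPM (0.503, 0.374 to 0.677). In male cells it was at 4.22 CPM in STK and 3.96 CPM in DMSO (1.07, 0.542 to 1.94). As a mean over all cells of the class, each weighing the same, the ratio was 0.672. All other gated classes with at least 50 cells per library had at most 7 Egfr UMIs in a library. Treg cells, the single class with the most Areg UMIs in both libraries, had 0 Egfr UMIs in both libraries.

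Erbb3, a receptor with an impaired kinase, had the same pair of classes. Hepatocyte or tumour cells held 739 UMIs in STK and 765 in DMSO, or 31.3 and 24.5 CPM, a ratio of 1.28 (1.16 to 1.42). Within female cells the ratio was 1.12 (0.943 to 1.33) and within male cells 1.00 (0.776 to 1.28), and both intervals include 1. pDC held 65 UMIs in STK and 60 in DMSO, or 14.0 and 17.8 CPM (0.784, 0.543 to 1.13). Female pDC had an Erbb3 ratio of 1.04 (0.438 to 2.99), and male pDC one of 0.808 (0.348 to 1.73). Lower levels, between 1.31 and 3.43 CPM, were found in CD8 T cells (1.32 CPM in STK and 1.62 CPM in DMSO), NK or ILC1 cells (1.31 and 2.03 CPM), cDC1 (2.95 and 3.43 CPM) and macrophages (1.37 and 2.37 CPM), each with an interval of the ratio that includes 1.
Treg cells (5 UMIs in each library), conventional CD4 T cells (5 and 5) and classical monocytes (5 in STK and 11 in DMSO) also had such intervals.

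**Figure D3:**
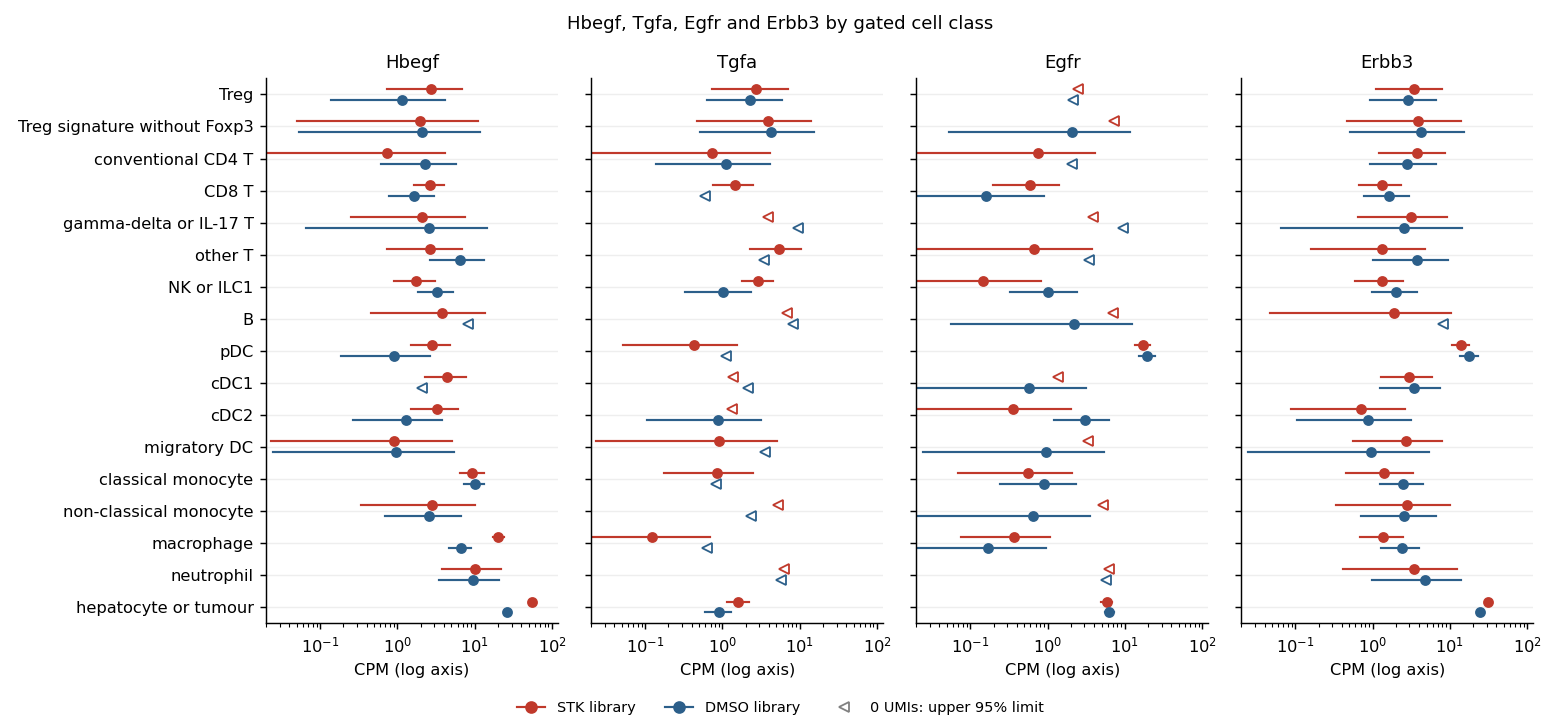
Hbegf, Tgfa, Egfr and Erbb3 levels (CPM, log axis) in the same classes, STK above DMSO, with exact Poisson 95% intervals cut at the left edge. Open triangles mark the upper limit at 0 UMIs. Egfr and Erbb3 peak in pDC and in hepatocyte or tumour cells, and Hbegf is highest in hepatocyte or tumour cells in both libraries and next highest in macrophages in STK only.

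**Figure D4:**
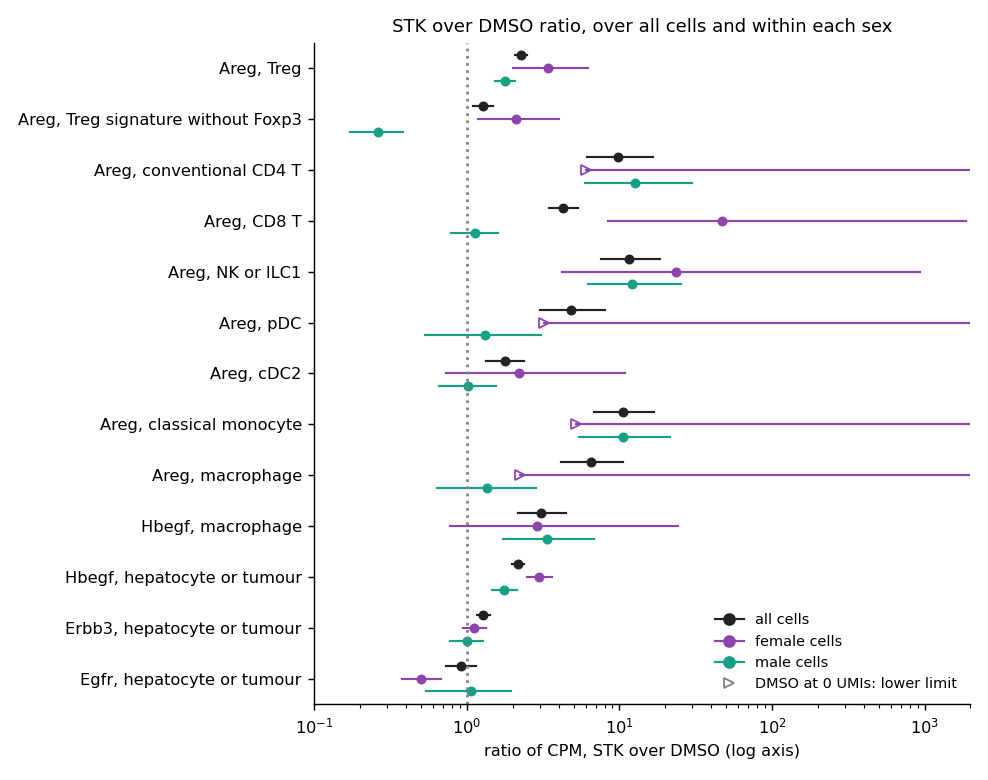
Ratio of CPM, STK over DMSO (log axis), over all cells of a class and within female and male cells, with exact conditional 95% intervals. Open triangles are lower limits where DMSO had 0 UMIs. Areg in NK or ILC1 cells and classical monocytes stands above 1 in every set drawn, while in CD8 T cells, pDC, cDC2 and macrophages the male interval includes 1.

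In hepatocyte or tumour cells 31 of 38 listed genes of the EGF family (ligands, neuregulins, receptors, sheddases, adaptors and feedback) were measured, with at least 10 UMIs over both libraries. Of these, 8 were at least 1.5-fold higher in STK and 0 at least 1.5-fold lower, beside 11.6% and 6.13% of 14565 genes. The members and lists were chosen with earlier results known, so this count is not a test. Genes other than the members were not split by sex. The higher genes were the members Areg, Hbegf and Tgfa with Nrg1, Adam8, Adam15, Spred1 and Erbb2. Areg held 0 UMIs in male STK cells, and its intervals within each sex include 1, as given above. Erbb2, the partner receptor without a ligand, was at 4.70 CPM in STK and 2.88 CPM in DMSO (1.63, 1.23 to 2.18). Adam15 had a ratio of 1.66 (1.01 to 2.72), Adam8 of 1.58 (0.908 to 2.77), Rhbdf2 of 1.42 (1.25 to 1.63) and the protease inhibitor Timp3 of 0.752 (0.491 to 1.14), while the ligand sheddase Adam17 stood at 18.1 CPM in STK and 18.4 CPM in DMSO (0.983, 0.865 to 1.12). Among feedback genes, Errfi1, an inhibitor of the EGF receptor that its signal induces, had 1.32 (1.25 to 1.40) and Spry1 1.33 (1.11 to 1.60). The exchange factor Sos1 had 0.816 (0.732 to 0.909) and the phosphatase Ptpn11 0.867 (0.816 to 0.922).

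In Treg cells 20 of the 38 genes were measured, of which 1, Areg, was higher and 4, Adam9, Shc1, Sos1 and Spry1, were lower by that fold, beside 8.9% and 12.5% of all genes, so the counts are near that background. Adam9 had a ratio of 0.549 (0.324 to 0.906) and the adaptor Shc1 0.520 (0.321 to 0.823), whereas Adam17 had 44.8 CPM in STK and 57.6 CPM in DMSO (0.777, 0.561 to 1.07). Adam8 (0.815, 0.611 to 1.08), Adam19 (1.2, 0.941 to 1.52), Ptpn11 (1.31, 0.970 to 1.78) and Errfi1 (1.19, 0.790 to 1.79) had intervals that include 1, and the ubiquitin ligase Cbl had 1.31 (1.03 to 1.65). In macrophages Adam8, a leukocyte metalloprotease, was at 59.6 CPM in STK and 22.7 CPM in DMSO (2.62, 2.16 to 3.20), and Errfi1 at 48.3 and 27.1 CPM (1.78, 1.48 to 2.15). In pDC, one of the 2 classes with Egfr, Errfi1 was at 24.7 CPM in STK and 13.7 CPM in DMSO (1.81, 1.27 to 2.60). In NK or ILC1 cells Errfi1 was at 54.2 CPM in STK and 36.2 CPM in DMSO (ratio interval 1.25 to 1.80). Of 9 adaptor and feedback genes measured in that class, 0 were past 1.5-fold, beside 7.62% higher and 10.6% lower of all genes.

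Early response genes, which tissue dissociation and heat also induce, differed between the libraries. Of 20 such genes, 3 were higher and 10 lower in STK Treg cells beside 8.9% and 12.5% of all genes, and 3 higher and 10 lower in STK NK or ILC1 cells, beside 7.62% and 10.6%. In Treg cells the heat shock genes Hspa1b and Hspa1a had ratios of 0.0106 (0.00289 to 0.0274) and 0.0439 (0.0224 to 0.0777), Jun of 0.351 (0.297 to 0.414) and Fosb of 2.34 (1.47 to 3.79). In NK or ILC1 cells Hspa1a, Hspa1b, Zfp36 and Jun had ratios between 0.0426 and 0.405. Hepatocyte or tumour cells went the other way, with 14 of 20 higher and 1, Hspa1b, lower (0.662, 0.610 to 0.718), beside 11.6% and 6.13% of all genes. The ratios furthest from equal were those of Fosb (4.78, 4.26 to 5.37), Egr1 (3.18, 3.04 to 3.33), Ier3 (2.83, 2.53 to 3.17) and Ier2 (2.70, 2.60 to 2.79). In macrophages 2 of the 20 genes were higher and 10 lower, beside 7.64% and 11.4% of all genes. Hbegf was higher in STK in both of these classes. Whether handling of the tumours had a part in the levels of Areg or Hbegf was not tested.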

How the data were processed

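The authors deposited Cell Ranger matrices of unnormalized UMI counts (version 6.0.2 per the file headers); per the submitters' processing notes the build was GRCm38 (mm10). Aligner settings: not given in the sources used here. Cells were kept by the limits given above, and 826 STK and 632 DMSO barcodes were left out. The 203 barcodes that occur in both matrices were kept, and of the 183 kept in both only 7 fell in the same gate. Cells were gated on the summed UMIs of fixed marker lists; the gate minimums were set after marker counts had been seen. Cells of no gate or of several lineages were left out of class values. Doublets were called with Scrublet in scanpy 1.11.5 with a score threshold below its automatic one (425 STK cells, 3.92%, and 419 DMSO cells, 3.76%) and removed only in an alternative; the cells were also clustered with Leiden (igraph 0.11.9, leidenalg 0.10.2).

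CPM (counts per 1e6) is a gene's summed UMIs in a class over the class total. Ratios have exact conditional binomial 95% intervals, levels exact Poisson and shares Clopper-Pearson intervals (scipy 1.17.1). They cover counting error only. A count of 0 was set to a floor of 3 UMIs per library. Folds by this floor leave out the counting error of the other library and are not lower limits. Shares were taken after thinning each cell to 1000 UMIs, leaving out shallower cells. With 1 library per group no test was run. The ratio and interval code was tested on simulated data. A gene counted as measured from 10 UMIs (STK plus DMSO) and was called at 1.5-fold. The 7 members were named in each class of at least 50 cells per library with at least 10 UMIs, and genes of other lists were named from the 4 furthest from equal with at least 50 UMIs; Adam17 in hepatocyte or tumour cells, Il13, and the called genes of short counts were named after their values were seen. The members and lists were chosen with earlier results of these data known. Gene positions are from GENCODE vM21.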

Additional observations from a re-analysis of the deposited data

Results flagged for a closer look

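Areg RNA also lay in cells that the class comparisons do not use. Barcodes left out by the cell filters had 59 Areg UMIs in STK and 2 in DMSO, or 27.1 and 1.59 CPM. Cells of no gate had Areg at 68.6 CPM in STK and 9.07 CPM in DMSO (358 and 54 UMIs), and cells with markers of more than 1 lineage at 126 CPM in STK and 52.7 CPM in DMSO (528 and 129 UMIs). In each of these sets the STK level was above the DMSO level. No other group of samples allowed a check for samples that stand apart, since each group is 1 library.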

How the results depend on the processing

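Of 284 values recomputed, 197 stayed within their counting interval or near their count, 86 moved out of it, and 1 past 1.5-fold changed direction. The Areg ratio of 5.0 in hepatocyte or tumour cells was 0 in male cells (0 UMIs in STK and 10 in DMSO), with an interval to 2.71 that includes 1. Areg in Treg-signature cells without Foxp3, at 1.28, was 0.260 in male cells. The causes were not tested. Over all kept cells the Areg ratio of 3.32 was 14.4 in female and 2.93 in male cells, 3.65 without the 5 cells with the most UMIs in each library, 3.12 as a mean over cells and 3.02 with the class mix equalised. Outside the Treg gates the ratio of 6.74 was 7.79 without Scrublet calls, 29.4 in female and 4.49 in male cells, 7.98 without barcodes in both libraries, 7.63 in Leiden clusters, 8.75 without the top 5 cells and 7.93 as a mean over cells. In Treg cells the ratio of 2.25 was 3.39 in female and 1.79 in male cells, 1.74 in Leiden clusters, 2.60 without the top 5 cells, 2.60 as a mean over cells and 1.82 with the 3 Treg-related gates summed. Hbegf in hepatocyte or tumour cells, at 2.17, was 2.97 in female and 1.76 in male cells and 1.77 as a mean over cells. Without 5 cells per library Areg had ratios of 9.71 in CD8 T cells, 154 in NK or ILC1 cells, 6.24 in cDC2 and 37.6 in macrophages. Few DMSO cells held its UMIs there, so this removal raises the ratio by itself. In NK or ILC1 cells it took 22 of 23 DMSO UMIs and 154 of 369 STK UMIs. In macrophages it took 20 of 22 and 92 of 195. The sizes of these 2 ratios thus rest on very few DMSO UMIs. Without barcodes in both libraries cDC2 had 3.07, as 1 such DMSO cell held 31 UMIs. The 4 lower pathway genes in Treg cells were 0 at 2-fold, where 493 of 10349 genes were lower. With at least 50 UMIs they were 2, where 471 of 6808 genes were lower. The 8 higher in hepatocyte or tumour cells were 3 at 2-fold, and the share of all genes at 2-fold is not given for that class. Without thinning 3 tissue repair genes, not 0, stood higher in DMSO Treg cells with Areg, and 1 early response gene, not 0, in each library. The runs without shared barcodes and with summed Treg gates were chosen after seeing the data. No paired analysis was possible because each group is 1 library. With 1 library a group, no replicate could be left out, and low counts leave wide intervals, as for Hbegf in neutrophils (6 UMIs each).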

Other observations

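Neuregulins, the ligands of Erbb3 and Erbb4, were few. pDC held 100 Nrg2 UMIs in STK and 62 in DMSO (21.5 and 18.4 CPM, ratio 1.17, 0.841 to 1.63), in the class that also held Egfr and Erbb3. Macrophages held 61 Nrg1 UMIs in STK and 33 in DMSO (1.35, 0.872 to 2.13), and hepatocyte or tumour cells 50 Nrg4 UMIs in STK and 68 in DMSO (0.975, 0.663 to 1.42). All 3 intervals include 1.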
